A study of Mus musculus with 6 samples.

Results

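The 31 mouse genes that encode semaphorins, their plexin receptors and the neuropilin co-receptors were examined in RNA-seq of the adult hippocampus. They were taken by symbol from the 55471 genes of the count table after matching identifiers to GENCODE, and comprised 20 semaphorins, 9 plexins and 2 neuropilins. RNA-seq was performed on total RNA from the hippocampus of individual mice, 3 p300-ifKO and 3 control. In the p300-ifKO (inducible forebrain knockout), floxed Ep300 is recombined by creERT2 under the CaMKIIα promoter. The comparison asks what loss of the lysine acetyltransferase p300 from mature excitatory neurons does to the transcriptome. All mice were C57BL/6 males of 3 to 6 months, and tamoxifen, dissolved in corn oil at 20 mg/mL, was given 5 times to both groups. The driver is restricted to excitatory neurons of the forebrain, whereas the RNA came from all cells of the hippocampus, and the recombined allele still encodes a truncated p300. The protocol describes controls as littermates lacking the driver, but the description of each control library names Camk2a_creERT2. Counts of genes tied to the driver, given below, were far lower in every control library than in every p300-ifKO library. The labels do not say whether controls carried the floxed allele.

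Semaphorins are secreted or membrane-bound guidance proteins that share an extracellular sema domain. Most act through plexins, receptors whose cytoplasmic part holds a GTPase-activating domain and signals to the cytoskeleton. Most class 3 semaphorins, the secreted ligands of vertebrates, bind first to a neuropilin, which forms the receptor complex with a class A plexin. In the hippocampus these genes are known for guiding mossy fibers and other axons during development and for restraining dendritic spines and remodelling synapses in the adult.

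Promoter sequence was read for 26 members that the RefSeq promoter table (GRCm38.p6) lists, in the 250 bases upstream of each annotated start. The GC box, which is spelled GGGCGG and reads CCGCCC on the opposite strand, occurred in 27 of their 37 promoters, belonging to 21 members. Among all 32851 promoters of the table, 32.7% held it in the same window. The cAMP response element TGACGTCA, the palindromic site bound by CREB, occurred in 0 of the 37 member promoters and in 1.55% of all promoters. Its shorter form TGACG, which the full element also contains, was searched on both strands and was present in 1 of the 37, that of Sema3d, and in 17.8% of all promoters. Sequences follow for 3 members whose p300-ifKO and control libraries did not overlap in counts divided by the DESeq2 size factor. For Sema7a and Nrp2 the separation, described later, depended on how counts were scaled. The 3 sequences are printed with capitals marking the GC boxes, including those that overlap each other. They come from the + strand and stop before both the RefSeq and the GENCODE start: Sema5a at chr15:32244563-32244809, Sema7a at chr9:57939862-57940111 and Nrp2 at chr1:62703067-62703284.
Sema5a: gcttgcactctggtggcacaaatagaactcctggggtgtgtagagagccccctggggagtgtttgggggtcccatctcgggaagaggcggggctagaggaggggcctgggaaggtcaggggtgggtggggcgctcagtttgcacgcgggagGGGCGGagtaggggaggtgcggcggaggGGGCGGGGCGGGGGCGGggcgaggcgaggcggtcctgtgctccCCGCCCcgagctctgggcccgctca
Sema7a: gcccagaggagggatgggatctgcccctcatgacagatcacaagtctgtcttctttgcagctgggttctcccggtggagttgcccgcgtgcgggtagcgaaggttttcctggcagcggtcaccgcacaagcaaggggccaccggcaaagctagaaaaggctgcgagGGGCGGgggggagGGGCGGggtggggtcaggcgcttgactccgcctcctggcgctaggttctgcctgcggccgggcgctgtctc
Nrp2: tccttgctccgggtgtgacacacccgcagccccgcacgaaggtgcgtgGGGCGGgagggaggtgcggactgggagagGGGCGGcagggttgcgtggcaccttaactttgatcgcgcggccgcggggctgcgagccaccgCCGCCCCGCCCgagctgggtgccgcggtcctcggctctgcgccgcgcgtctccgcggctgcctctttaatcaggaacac
With overlapping matches counted, GC boxes numbered 5 in the Sema5a sequence, 2 in that of Sema7a and 4 in that of Nrp2. The GC content of these stretches was 71.7%, 66.4% and 72.5%.

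The targeted gene and the driver were examined first. Ep300 had 1545, 1474 and 2334 normalized counts (counts divided by the DESeq2 size factor) in control mice and 478, 1350 and 912 in p300-ifKO mice, with the highest p300-ifKO count in replicate 2. DESeq2 gave −0.97 (SE 0.33) as its log2 fold change, at an adjusted p of 0.991. Esr1, part of which is contained in creERT2, had 109, 87.2 and 108 normalized counts in control mice and 4217, 2416 and 2868 in p300-ifKO mice. Arsi, which the study describes as part of the construct that carries the driver, had 28.8, 24.2 and 38.8 against 204, 168 and 171. Libraries held between 23151568 and 28433823 counts, and every member was read: the lowest raw count of a member in any library was 28, for Sema3b.

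Semaphorin signalling genes were expressed across a wide range in the control hippocampus. The levels given are TPM values, that is counts per kb of the deposited exonic length scaled to the same total in every library. Sema7a, the GPI-anchored semaphorin that acts through integrins and Plxnc1, was the highest member, with 152, 147 and 159 TPM in the 3 control libraries (152 ± 6.05, SD, n = 3). This was above the level of 96.9% of the genes tested. Sema6b, a transmembrane ligand of class A plexins, followed with 117 ± 9.40 TPM (SD, n = 3). The highest receptors were Plxna1 with 80.1 ± 4.97 TPM and Plxna4 with 57.0 ± 8.44 TPM (SD, n = 3). The control ranges of these leading members did not overlap from one to the next, nor did those of Plxna4 and Sema4f, which had 47.1 TPM.

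From Sema4f down to Sema4g, a run of 18 members lay between 47.1 and 16.8 TPM, and each overlapped its neighbour in the ordering. Receptors in this run were Plxnb1 (46.8 TPM), Plxnb2 (38.4 TPM), Plxna2 (30.6 TPM), Plxnc1 (29.8 TPM), Plxna3 (23.3 TPM), Plxnb3 (19.7 TPM) and Plxnd1 (17.1 TPM). Both neuropilins belonged to it: Nrp2, the preferred co-receptor of Sema3f, had 27.5 ± 1.70 TPM and Nrp1, that of Sema3a, had 23.0 ± 4.64 TPM (SD, n = 3). Among ligands it held Sema4d (34.9 TPM), Sema4a (29.8 TPM), Sema3e (27.2 TPM), Sema5a (26.4 TPM), Sema6d (24.8 TPM), Sema6c (16.9 TPM) and Sema4b (16.9 TPM). Of the 30 neighbouring pairs in the ordering of all members, 23 overlapped in their control ranges.

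The lowest members were mostly secreted ligands. Sema3a, the founding collapsin, had 0.917 ± 0.335 TPM (SD, n = 3), above 46.8% of the genes tested, and overlapped Sema3b (1.73 TPM) in the control libraries. Sema3f (2.45 TPM) and Sema3d (2.88 TPM) overlapped too, whereas Sema3g (5.97 TPM) stood apart from its neighbours on either side. Sema3e, a ligand that binds Plxnd1 without a neuropilin, accounted for most of the summed 51.8 ± 2.94 TPM of the 7 secreted ligands (SD, n = 3). The class 6 ligands summed to 169 ± 4.19 TPM, the class 4 ligands to 157 ± 8.29 TPM, and the 4 class A plexins to 191 ± 20.8 TPM (SD, n = 3). Per library, Nrp2 exceeded Nrp1 1.34, 1.29 and 1.03 times in control mice and 1.37, 1.04 and 1.40 times in p300-ifKO mice, so that this ratio overlapped between the groups.

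**Figure D1:**
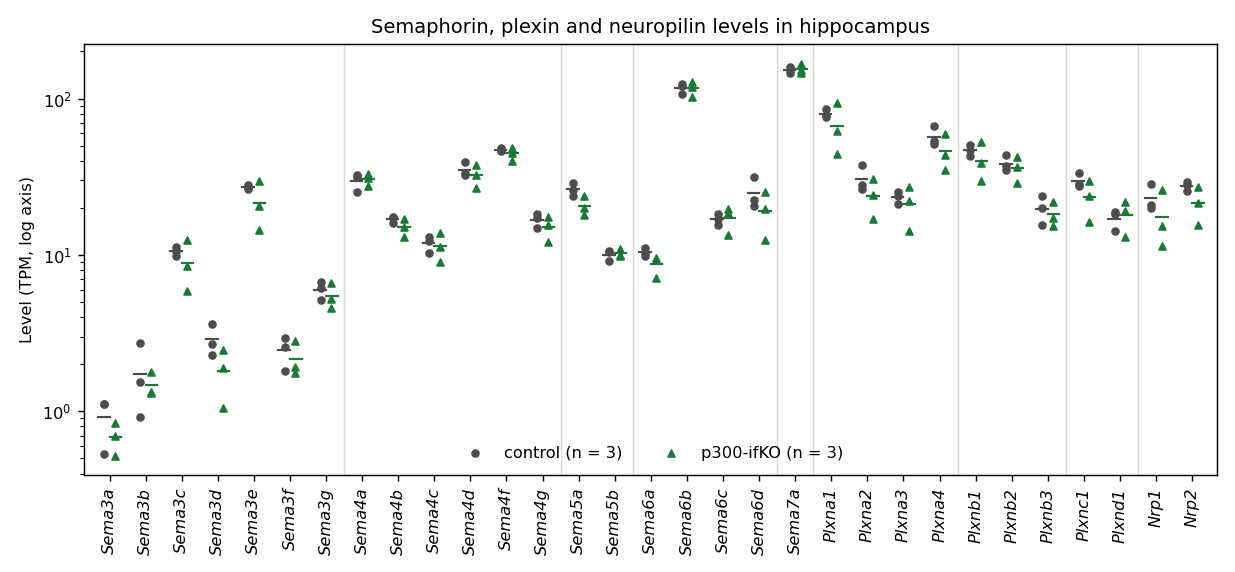
Level of each member in TPM (log axis) in 3 control libraries (circles) and 3 p300-ifKO libraries (triangles), with horizontal bars at the group means. Sema7a and Sema6b lie at the top with 152 and 117 TPM in control mice, and Sema3a lies at the bottom with 0.917 TPM.

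Most members were somewhat lower in p300-ifKO than in control mice, and no member passed the test. In DESeq2, 0 of the 31 members had an adjusted p under 0.05, against 2 of 32773 genes tested, or 0.0061%, and the edgeR quasi-likelihood test also called 0 members. The 2 genes that DESeq2 called were Esr1 and Arsi, whose rise the study describes as a feature of mice with the driver. At an unadjusted p under 0.05, DESeq2 and edgeR each gave 2 members, Sema3d and Sema5a, both lower. DESeq2 gave 1.32% of all genes in either direction and 0.546% lower. Among the 17070 genes with a mean normalized count above 10, DESeq2 gave 383, of which 150 were lower. The edgeR test gave 394 of the 17131 genes it tested. The log2 fold change was below 0 for 25 members (80.6%) and above 0 for 6, with TMM factors as with DESeq2 size factors, but for 16 and 15 in a fit with 1 surrogate variable. These shares stood beside 54.7% of all genes tested below 0 and 50.7% of the 17070 genes with a mean normalized count above 10. The median over the members was −0.12, over all genes tested −0.046 and over those 17070 genes −0.0051. Members of one family share ligands and receptors and were measured in the same 6 libraries, so these shares describe the list and were not tested. In bulk tissue, fewer cells of a type cannot be told apart from less RNA per cell.

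The data bounded the size of these differences for most members. The 95% interval of the log2 fold change lay between a halving and a doubling for 29 of 31 members, the exceptions being Sema3a (−1.03 to 0.29) and Sema3d (−1.23 to −0.06). It excluded a change of 0.5 in either direction for 16 members, with a median SE of 0.18 over the members. In 4 members (Sema4b, Sema5a, Sema6a and Nrp2) every p300-ifKO library lay below every control library in normalized counts. This held for 3.37% of the 17070 genes. In 1 member, Sema7a, every p300-ifKO library lay above, beside 4.09% of those genes. In TPM, Sema5a and Sema6a stayed below, whereas the groups overlapped for Sema4b, Nrp2 and Sema7a.

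Among the secreted class 3 ligands, 7 of 7 had a log2 fold change below 0, from −0.64 to −0.08 with a median of −0.21, whereas Sema3b, Sema3c and Sema3g were above 0 with 1 surrogate variable. Sema3d (ENSMUSG00000040254, GRCm38 chromosome 5, 12383385 to 12588948), which acts in heart and vessel development, had 152, 132 and 199 normalized counts in control mice and 66.6, 134 and 108 in p300-ifKO mice. Its p300-ifKO replicate 2 lay within the control range and the other p300-ifKO libraries below it. DESeq2 put the log2 fold change at −0.64 (SE 0.30, unadjusted p 0.0319, adjusted p 0.991). Sema3e (ENSMUSG00000063531, chromosome 5, 14025276 to 14256689) had 1640, 1756 and 1561 normalized counts in control mice and 999.9, 1736 and 1274 in p300-ifKO mice (log2 fold change −0.31, SE 0.21). Again p300-ifKO replicate 2 was within the control range. Sema3c, a ligand of both neuropilins, had 497, 470 and 513 normalized counts against 312, 561 and 403, so that p300-ifKO replicate 2 was the highest of all 6 libraries. The fold changes of Sema3a (−0.37, SE 0.33), Sema3b (−0.16, SE 0.41), Sema3f (−0.12, SE 0.31) and Sema3g (−0.08, SE 0.20) were each close to or under their standard errors, and the groups overlapped in each.

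Among the transmembrane class 4 ligands, 5 of 6 had a log2 fold change below 0, with a median of −0.04. Sema4b had 641, 610 and 618 normalized counts in control mice and 545, 608 and 572 in p300-ifKO mice. There was no overlap, but the highest p300-ifKO library was close to the lowest control library, and the log2 fold change was −0.12 (SE 0.13). Sema4a, known from immune cells and retina, had 1149, 915 and 1089 normalized counts against 1112, 1119 and 1118, with the p300-ifKO libraries nearly equal and inside the control range. Its log2 fold change was 0.09 (SE 0.14). Those of Sema4d, a ligand of Plxnb1 (−0.06, SE 0.13), Sema4f (−0.03, SE 0.11), Sema4c, a ligand of Plxnb2 (−0.02, SE 0.18), and Sema4g (−0.12, SE 0.15) were under their standard errors. Sema4f was among the most closely bounded members, with an interval of −0.24 to 0.18.

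Sema5a and Sema5b, which carry thrombospondin repeats beside the sema domain, lay on opposite sides of 0. Sema5a (ENSMUSG00000022231, chromosome 15, 32244810 to 32696341) had 2916, 3283 and 3448 normalized counts in control mice and 2501, 2815 and 2504 in p300-ifKO mice, so that the groups did not overlap. DESeq2 put the log2 fold change at −0.30 (SE 0.13, unadjusted p 0.0172, adjusted p 0.991). Sema5b had 420, 504 and 467 normalized counts against 517, 490 and 470, a log2 fold change of 0.09 (SE 0.14), and the groups overlapped. The ratio of their TPM was 2.63, 2.47 and 2.80 in control mice and 1.83, 2.18 and 2.02 in p300-ifKO mice, without overlap. The exonic length of Sema5a, 18.7 kb, was the longest of the members and that of Sema5b was 7.08 kb. With offsets for length and GC content the log2 fold change of Sema5a was −0.06. It was −0.23 with 1 surrogate variable and −0.37 to −0.25 with 1 library left out.

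The class 6 ligands, which bind class A plexins directly, were split, with 2 of 4 below 0. Sema6a had 567, 607 and 622 normalized counts in control mice and 466, 515 and 563 in p300-ifKO mice, without overlap and with a log2 fold change of −0.22 (SE 0.14). Sema6d had 1547, 1458 and 2110 normalized counts against 974, 1690 and 1385, a log2 fold change of −0.34 (SE 0.23), and control replicate 3 stood above the other 5 libraries. Sema6b had 3225, 3195 and 2690 normalized counts against 3021, 3187 and 3146, so that its p300-ifKO libraries lay within the control range. Its log2 fold change was 0.04 (SE 0.12), and that of Sema6c was 0.07 (SE 0.15).

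Sema7a, the highest member, differed little between the groups. Sema7a (ENSMUSG00000038264, chromosome 9, 57940112 to 57962865) had 3262, 3243 and 3328 normalized counts in control mice and 3558, 3483 and 3345 in p300-ifKO mice. Each p300-ifKO library was above each control library, by a small margin for replicate 3. DESeq2 put the log2 fold change at 0.08 (SE 0.10, 95% interval −0.11 to 0.27, adjusted p 0.991), and at −0.01 once offsets for length and GC content were used.

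**Figure D2:**
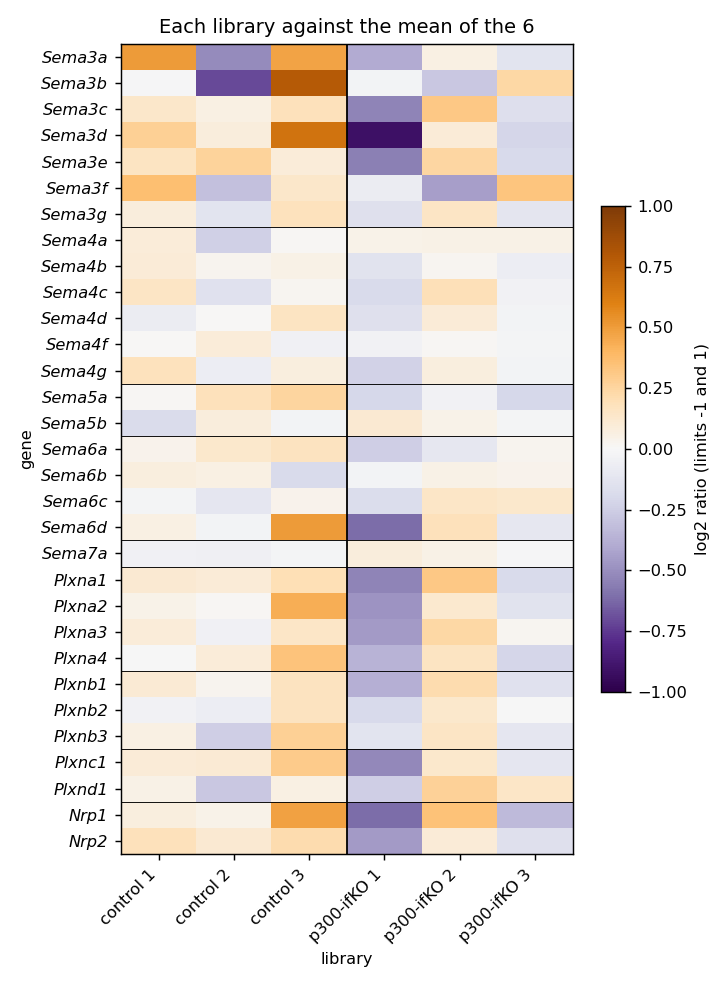
Log2 ratio of the normalized counts of each library to the mean over the 6 libraries, with members in rows and libraries in columns (color scale from −1 to 1). The column of p300-ifKO replicate 1 is the lowest of the 6 for 21 members, and that of p300-ifKO replicate 2 is above 0 for every plexin.

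Plexin genes had a log2 fold change below 0 for 8 of 9 members, with a median of −0.18, and 0 passed the test. It was below 0 for 4 of 9 with 1 surrogate variable, and for 6 of 9 with a median of −0.05 without p300-ifKO replicate 1. The class A plexins, the signalling partners of neuropilins, were below 0 in 4 of 4, though Plxna1 and Plxna3 were above 0 with 1 surrogate variable. Plxna1 (ENSMUSG00000030084, chromosome 6, 89316314 to 89362620) had 4657, 4607 and 4928 normalized counts in control mice and 2963, 5350 and 3767 in p300-ifKO mice. Thus the p300-ifKO libraries included both the lowest and the highest value, and the log2 fold change was −0.23 (SE 0.21). Antisense gene Gm26811 overlaps 10.7% of the Plxna1 exonic sequence and D430040D24Rik 7.27% of that of Sema4c, and without a stated strand setting reads there cannot be assigned to one strand. Plxna4, a receptor for Sema3a and Sema6a, had 4711, 5032 and 5987 normalized counts against 3683, 5283 and 4076 (log2 fold change −0.27, SE 0.18). Plxna2, which with Plxna4 lays out the mossy fiber layers, had 3129, 3052 and 4085 normalized counts against 2175, 3305 and 2764 (−0.32, SE 0.20). In both genes p300-ifKO replicate 2 was within the control range and the other p300-ifKO libraries were below it. Plxna3 had a log2 fold change of −0.11 (SE 0.20).

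Class B plexins, which bind class 4 ligands and activate RhoA through exchange factors, had a median log2 fold change of −0.07. Plxnb1 had 2937, 2783 and 3070 normalized counts in control mice and 2103, 3171 and 2463 in p300-ifKO mice (log2 fold change −0.18, SE 0.17). The groups overlapped, with p300-ifKO replicate 2 the highest library. Plxnb2 (−0.05, SE 0.14) and Plxnb3 (−0.07, SE 0.18) were under their standard errors. Plxnc1, the plexin that binds Sema7a, had 1544, 1555 and 1777 normalized counts against 1005, 1576 and 1334 (−0.32, SE 0.19). Plxnd1, the receptor of Sema3e, had 871, 692 and 876 normalized counts against 709, 1011 and 930. It was the plexin with a fold change above 0 (0.12, SE 0.19), and its groups overlapped.

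Both neuropilins had a log2 fold change below 0, as they did in every alternative fit, but its size varied. Without p300-ifKO replicate 1 it was −0.17 for Nrp1 and −0.20 for Nrp2, and with 1 surrogate variable −0.03 and −0.16. Nrp1 (ENSMUSG00000025810, chromosome 8, 128358604 to 128503363) had 1327, 1304 and 1763 normalized counts in control mice and 826, 1611 and 1001 in p300-ifKO mice (log2 fold change −0.35, SE 0.26). Here the groups overlapped through p300-ifKO replicate 2. Nrp2 (ENSMUSG00000025969, chromosome 1, 62703285 to 62818695) had 2147, 2041 and 2189 normalized counts against 1370, 2023 and 1693, and the groups did not overlap. DESeq2 put the log2 fold change at −0.33 (SE 0.17, 95% interval −0.66 to 0.0038, unadjusted p 0.0527, adjusted p 0.991).

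**Figure D3:**
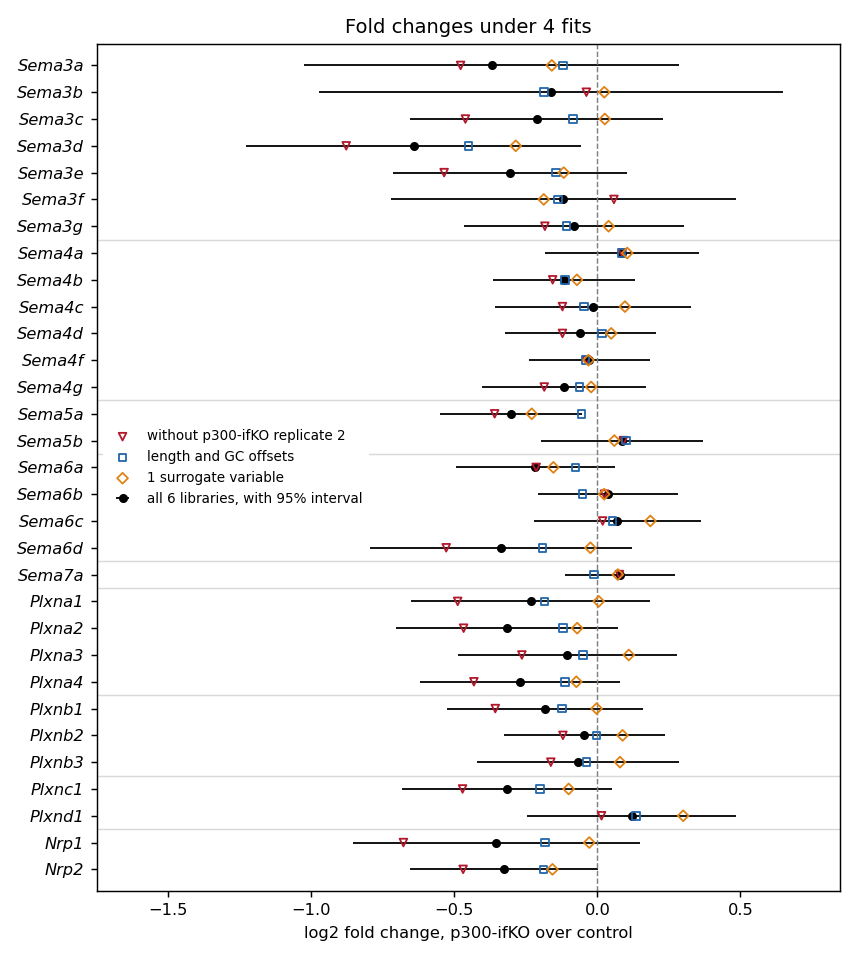
Log2 fold change of each member (p300-ifKO over control) in DESeq2 with all 6 libraries (black, bars are 95% intervals), with 1 surrogate variable, with length and GC offsets, and without p300-ifKO replicate 2. In the fit of all libraries 29 of 31 intervals include 0, and the 1 surrogate variable fit leaves 16 members below 0 and 15 above.

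The spread among the p300-ifKO libraries was wide for the receptors. The lowest of the 6 values came from p300-ifKO replicate 1 for 21 of 31 members, as it did for 37.8% of the 17070 genes. The highest came from control replicate 3 for 14 members, against 21.9% of genes, and from p300-ifKO replicate 2 for 7 members, against 16.1%. Relative to the mean of the 6 libraries, the median log2 ratio of the plexins was 0.06, 0.01 and 0.20 in control mice and −0.38, 0.16 and −0.11 in p300-ifKO mice. That of the semaphorins spread less, with 0.08, −0.01 and 0.11 against −0.17, 0.05 and −0.03. Over all 17070 genes the medians of the 6 libraries were within 0.01 of 0.

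Members were ordered among the p300-ifKO mice mostly as Ep300 was. Ep300 counts were lowest in replicate 1, intermediate in replicate 3 and highest in replicate 2. Of the 31 members, 26 showed this order, a comparison made after the values were seen, beside 35.6% of the 17070 genes. The 5 members that did not were Sema3b, Sema3f, Sema5b, Sema6a and Sema7a. With 3 mice the order is a description, and both Ep300 (14.3 kb) and most members have long exonic sequences.

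Whether members were called depended on 1 library. Without p300-ifKO replicate 2, DESeq2 called 926 of 32019 genes (2.89%), of which 444 were lower (1.39%), and 6 of the 31 members, all lower. After independent filtering an adjusted p was left for 28 members and 11726 genes. The 6 were the ligand Sema3e (−0.54, adjusted p 0.0254), the plexins Plxna1 (−0.49, adjusted p 0.0255), Plxna4 (−0.43, adjusted p 0.0427) and Plxnc1 (−0.47, adjusted p 0.0492), and the neuropilins Nrp1 (−0.68, adjusted p 0.0195) and Nrp2 (−0.47, adjusted p 0.0306) in DESeq2. Without p300-ifKO replicate 1, by contrast, 0 members were called, 21 were below 0 and 10 above, and the median over the members was −0.05. The edgeR test with p300-ifKO replicate 2 left out, chosen after seeing the data, called 2 of 17417 genes (0.0115%) and 0 members. At an unadjusted p under 0.05 it gave 12 members, beside 4505 of the 17417 genes. With p300-ifKO replicate 2 left out and length and GC offsets added, also chosen after seeing the data, DESeq2 called 376 of 16995 genes (2.21%, with 0.83% lower). It called 1 member, Plxna1 (−0.37, adjusted p 0.0354). In that fit an adjusted p was left for 26 members and 11064 genes. In the DESeq2 fit without p300-ifKO replicate 2, Ep300 itself was at −1.36 (adjusted p 0.000375). A fit without it rests on 2 p300-ifKO mice.

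**Figure D4:**
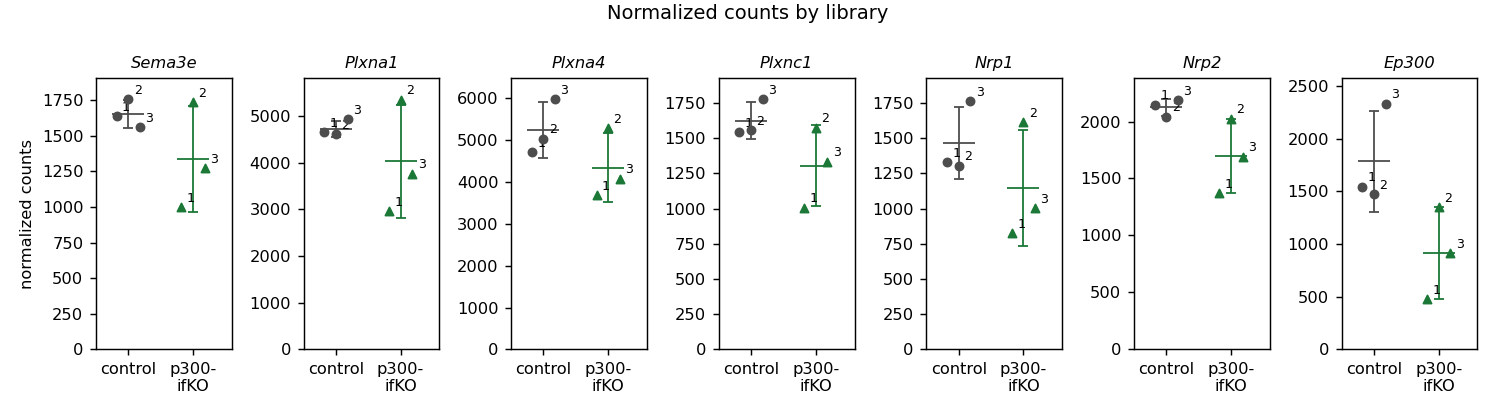
Normalized counts of the 6 members called without p300-ifKO replicate 2, and of Ep300, by library (numbers are replicates), with means and SD (n = 3). In each member p300-ifKO replicate 1 is lowest and replicate 2 lies in or near the control range, or above it for Plxna1.

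Fold changes of the members followed their exonic length and GC content. The members were long, with a median exonic length of 7.72 kb against 4.10 kb over the 17070 genes. Lengths ran from 3.30 kb (Sema7a) to 18.7 kb (Sema5a), and the medians were 6.51 kb for semaphorins, 8.35 kb for plexins and 10.8 kb for neuropilins. Across the 31 members the Spearman correlation of the log2 fold change was −0.75 with length and 0.80 with GC content, and across 17053 genes it was −0.44 and 0.29. These are correlations across genes of the same 6 libraries and genes are not independent replicates. The trend differed between libraries of the same group: over the 17053 genes, the ratio of a library to the mean correlated with length at 0.18, 0.16 and 0.41 in control replicates 1, 2 and 3 and at −0.50, 0.41 and −0.28 in the p300-ifKO replicates. With offsets for length and GC content per library, 26 members were below 0 and 5 above, with a median of −0.09, and 0 of 31 were called against 0.0117% of genes. Over the 17053 genes of that fit, 7477 were below 0 and the median was 0.027. The correlations across members were then −0.43 with length and 0.53 with GC content. The part of length and GC content in the members' fold changes was not tested beyond these offsets.

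**Figure D5:**
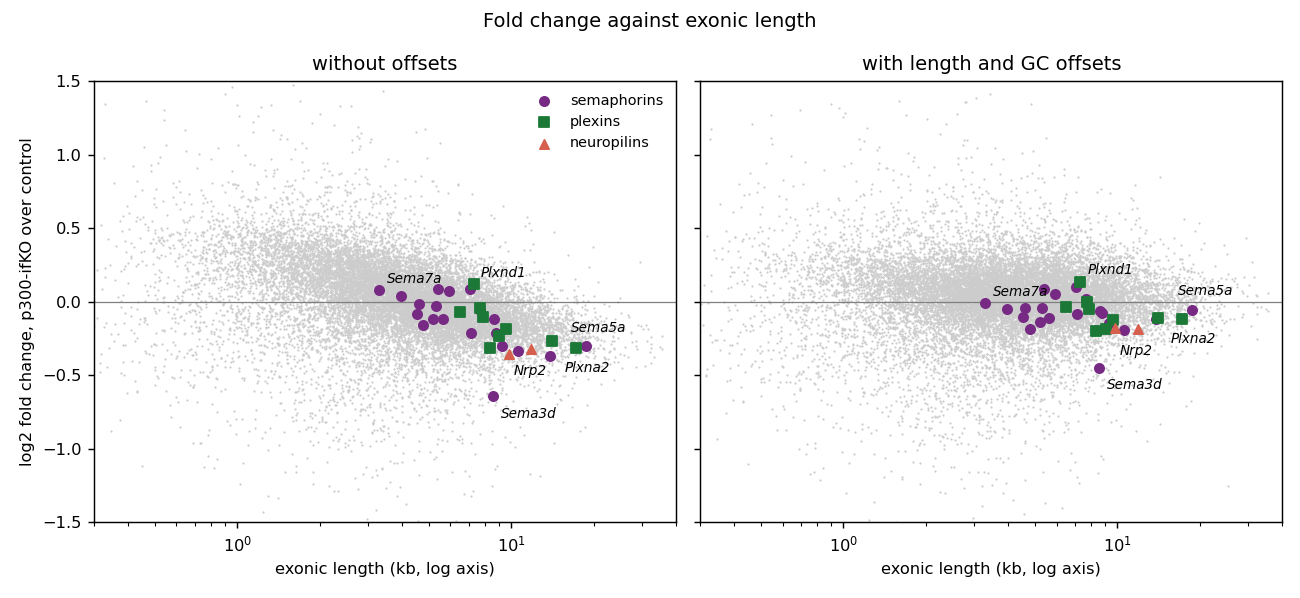
Log2 fold change (p300-ifKO over control) against exonic length in kb (log axis) for the members (colored) and for genes with a mean normalized count above 10 (grey), without and with length and GC offsets. Members span 3.30 to 18.7 kb, and their Spearman correlation with length is −0.75 without and −0.43 with the offsets.

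With 1 surrogate variable estimated from the libraries, the plexins lay close to 0 on balance, with a median of 0.0049. The variable was 0.08, 0.05 and 0.50 for control replicates 1, 2 and 3 and −0.79, 0.31 and −0.14 for the p300-ifKO replicates. With it in the fit, 16 members were below 0 and 15 above, the median was −0.0026, and 0 members were called against 0.00915% of genes, or 0.00305% counting only lower ones. Over all genes tested in that fit, 17230 of 32774 were below 0 and the median was −0.012. Ep300 was called lower in this DESeq2 fit, with a log2 fold change of −0.48 (adjusted p 0.00127) in place of −0.97. Plxna1 was then at 0.0049 and Nrp2 at −0.16, whereas Plxnd1 moved away from 0, from 0.12 to 0.30 (SE 0.12).

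Summed TPM of 2 marker lists, those of microglia and of oligodendrocyte precursors, did not overlap between the groups, by a small margin in each. TPM and normalized counts scale the libraries differently, and overlap of the sums in normalized counts was not examined. Summed TPM of 9 microglial markers was 610 to 656 in control mice and 662 to 885 in p300-ifKO mice, with 7 of 9 higher. That of 4 markers of oligodendrocyte precursors was 89.0 to 94.6 against 65.4 to 88.4, with 1 of 4 higher. The sum of 6 markers of meninges and fibroblasts, where class 3 ligands are also made, was 63.1 to 109 against 40.9 to 70.2, with 0 of 6 higher. Sums for excitatory neurons (5680 to 6360 against 5910 to 6390), hippocampal fields (888 to 970 against 833 to 1050), interneurons (1810 to 2230 against 1730 to 2400), astrocytes (1660 to 1780 against 1380 to 1720), oligodendrocytes (2680 to 3740 against 3000 to 3240), endothelium (217 to 231 against 221 to 246) and choroid plexus (27.3 to 397 against 105 to 593) overlapped. In DESeq2, 0 markers were called. Of all markers, 0 were at 0 in any library, those of choroid plexus included, so presence alone does not identify the tissue. The part of cell composition in the members' values was not tested.

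The proteins that act with these ligands and receptors were read from 61 further genes, among which 0 passed the test in DESeq2 or in edgeR. Of these 21 were above 0 and 40 below, with a median log2 fold change of −0.08, and at an unadjusted p under 0.05 DESeq2 gave 1 higher and 2 lower. Over all genes tested, 54.7% were below 0, the median was −0.046 and DESeq2 gave 1.32% at that threshold. Every p300-ifKO library lay below every control library in 4 of the 61 and above in 1, beside 3.37% and 4.09% of the 17070 genes. The genes named next had the smallest unadjusted p in each direction. Met, the receptor tyrosine kinase that associates with Plxnb1, had 129, 144 and 161 normalized counts in control mice and 96.7, 112 and 97.4 in p300-ifKO mice, without overlap (log2 fold change −0.50, SE 0.21). Dpysl3, a collapsin response mediator that relays Sema3a signals to microtubules, had 1681, 1515 and 1654 normalized counts against 1092, 1504 and 1296, without overlap (−0.32, SE 0.16). Farp1, an exchange factor that acts with Plxna4 in dendrite growth, had 1781, 1653 and 1914 normalized counts against 1393, 1619 and 1512, without overlap (−0.24, SE 0.13). On the other side, Trem2, a microglial receptor that can associate with Plxna1, had 436, 375 and 359 normalized counts against 667, 434 and 461 (0.42, SE 0.21), beside the higher microglial markers. Cdk5, a kinase that phosphorylates collapsin response mediators, had a log2 fold change of 0.32 (SE 0.20), and the adaptor Gipc1, which binds the neuropilin tail, one of 0.29 (SE 0.18). Cdk5 and Gipc1 have short exonic sequences (2.17 and 1.73 kb), and with the offsets they were 0.19 and 0.09.

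The groups within the wider list had medians on both sides of 0. Other co-receptors and ligands were below 0 in 13 of 16 genes (median −0.10), and the MICAL and MICAL-like genes in 4 of 5 (median −0.15). Collapsin response mediators were below 0 in 2 of 5 (median 0.05). Exchange factors and GTPase partners were below 0 in 9 of 16 (median −0.06), kinases and cytoskeletal effectors in 7 of 12 (median −0.04) and adaptors in 5 of 7 (median −0.03). Without p300-ifKO replicate 2, DESeq2 called 5 of the 61. Dpysl2 was higher (0.61, adjusted p 0.0277). Dpysl3 (−0.43, adjusted p 0.0412), Micall1 (−0.65, adjusted p 0.0352), Arhgef11 (−0.69, adjusted p 0.0267) and Tiam1 (−0.62, adjusted p 0.0229) were lower. This stood beside 926 of the 32019 genes tested (2.89%). Only 11726 of the genes tested were left with an adjusted p and could be called. The edgeR test with the same library left out called 0 of the 61.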

How the data were processed

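Total RNA from the hippocampus of 6 mice was sequenced (single-end, 50 bp). The deposited table held raw counts per gene: the authors trimmed with Trim Galore 0.6.4, aligned to GRCm38 with STAR 2.6.1, kept reads with a mapping quality above 10 and counted exons of Ensembl genes with Rsubread. The strand setting is not given in the sources used here. Groups came from sample titles. There were 0 unused per-sample columns. Of 55471 genes, 55230 (99.57%) matched GENCODE M21 by identifier. Control was compared with p300-ifKO in DESeq2 1.42.0 (R 4.3.3) by a two-sided Wald test without covariates, Benjamini-Hochberg adjusted over 32773 genes, threshold 0.05, and in edgeR 4.0.16 (quasi-likelihood). TPM used the deposited lengths. Alternatives were limma-voom 3.58.1, TMM factors, other filters, a replicate block, each library left out, smooth length and GC offsets (mgcv 1.9.3) and 1 surrogate variable (sva 3.50.0). The fits were tested on simulated counts. All members were named, as were Ep300, Esr1 and Arsi. Of the 61 further genes, those called or else the 3 with the smallest p in each direction were named. The genes called without 1 library were named after their values were seen. Members and lists were chosen with earlier results of these data known.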

Additional observations from a re-analysis of the deposited data

How the results depend on the processing

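In every fit of all 6 libraries the count of members called stayed at 0, and 15 members kept their direction in every alternative: Sema3a, Sema3d, Sema3e, Sema4b, Sema4g, Sema5b, Sema6c, Sema6d, Plxna2, Plxna4, Plxnb1, Plxnc1, Plxnd1, Nrp1 and Nrp2. With 1 library left out, the count of genes called ranged from 2 to 926, of members from 0 to 6 and of the 61 further genes from 0 to 5, each highest without p300-ifKO replicate 2. The 2 offset fits with a p300-ifKO library left out and the edgeR fit without p300-ifKO replicate 2 were chosen after seeing the data. Offsets without p300-ifKO replicate 2 gave 376 genes, 1 member and 3 of the 61. The semaphorin median was 0.0011 with 1 surrogate variable. The causes were not tested.

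With 1 surrogate variable, log2 fold changes turned positive for Sema3b (0.024), Sema3c (0.026), Sema3g (0.039), Sema4c (0.096), Sema4d (0.0485), Plxna1 (0.0049), Plxna3 (0.11), Plxnb2 (0.088) and Plxnb3 (0.079). With length and GC offsets they turned for Sema4d (0.017), Sema6b (−0.052) and Sema7a (−0.012). Offsets without p300-ifKO replicate 2 turned Sema3f (0.037), Sema4d (0.012), Sema5a (0.027), Sema6a (0.0079), Sema6b (−0.11) and Sema7a (−0.073), and offsets without p300-ifKO replicate 1 turned Sema4c (0.054), Sema4d (0.024), Plxna3 (0.081) and Plxnb2 (0.042). The edgeR fit without p300-ifKO replicate 2 turned Sema3f (0.064).

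Leaving out 1 library gave a range across 0 for 10 members. It was −0.34 to 0.058 for Sema3f (turned without control replicate 1 and p300-ifKO replicate 2), −0.12 to 0.067 for Sema4c (without control replicate 1, p300-ifKO replicate 1 and p300-ifKO replicate 3), and −0.12 to 0.011 for Sema4d and −0.12 to 0.035 for Plxnb2 (both without control replicate 3 and p300-ifKO replicate 1). Control replicate 2 turned Sema4a (−0.0016 to 0.16) and Sema4f (−0.056 to 0.011). Control replicate 3 turned Sema3b (−0.45 to 0.31), Sema6b (−0.039 to 0.085) and Plxnb3 (−0.19 to 0.066), and p300-ifKO replicate 1 turned Plxna3 (−0.26 to 0.065).

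With the replicate number as a block, DESeq2 called 4 genes and 0 members. The deviations of same-numbered libraries from their group means correlated at 0.26, −0.26 and 0.18 for numbers 1, 2 and 3, and not every library correlated best with its own number, so the numbers were not taken to pair mice.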
